A study of Rattus norvegicus with 5 samples.

Results

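The genes described here encode the SNARE proteins and the calcium-triggered exocytosis machinery of INS-1, a line grown from a rat insulinoma whose cells store insulin in dense-core granules and release it when calcium enters. The members were a given list of 37 gene symbols, matched to the array through the platform's gene annotation and not through their signal. Of these, 34 genes had 47 of the 15866 probe sets. Vamp4, Syt1 and Napb were not analysed here. Probe sets with a mean signal under 200 over the arrays are called dim: 8 of the 47 were dim, and the other 39 covered 33 genes, which were tested among 9570 probe sets of that brightness. Nearest to this limit were a probe set of Unc13a with a mean of 229.8 above it and one of Vamp1 with a mean of 171.4 below it.

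The 5 samples fell into 3 groups. Set 5-3 held the clones 5-3.14 and 5-3.19, set 1-1 held the clones 1-1.2 and 1-1.16, and the parental INS-1 line stood alone, with 1 array for each. All 4 clones came from INS-1 and carry an FRT site, at which Flp recombinase can insert a gene, and the tetracycline repressor, which keeps an inserted gene silent until tetracycline is given. The labels name no inserted gene and no treatment, and they do not say what the sets stand for or whether the clones of a set share an origin. Each set is represented by 2 separate clones, and each clone by 1 array. The questions put to the members were how far the clones depart from the line they came from and how far the clone sets differ. Signals are linear, in arbitrary units, and had been brought to the same level on the 5 arrays, with trimmed means from 1000.24 to 1000.28. Having 1 array per line or clone limits how precise each value can be.

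Membrane fusion during secretion is driven by SNARE proteins. Syntaxins and SNAP proteins of the plasma membrane zip together with a VAMP on the vesicle, and Sec1/Munc18 proteins guide the syntaxin into that complex. Munc13, RIM and CAPS proteins prepare docked vesicles for release, complexins hold and promote the partly assembled complex, and synaptotagmins with calcium-binding C2 domains trigger fusion. After fusion the ATPase NSF and its SNAP adaptors pull the complex apart, while the Rab effectors granuphilin and Noc2 tie granules to Rab GTPases and the plasma membrane. In beta cells this machinery releases insulin.

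The identity of the cells was read from marker genes. All 8 beta cell markers with a probe set were above the brightness limit, but 7 of the 8 had a lower fitted level in the clones than in the parental line, with a median log2 difference of −0.46, and limma called 0 of them. Their summed signal was 93395 and 90467 in the 5-3 clones, 129090 and 76092 in set 1-1, and 125219 in the parental line. Ins2, an insulin gene, read 3953 and 4303 in the 5-3 clones, 30224 and 5381 in set 1-1, and 28816 in the parental line, and so was high in the parental line and in 1-1.2 only. Neurod1, a beta cell transcription factor, read 6392 and 5773 in the 5-3 clones, 6927 and 2790 in set 1-1, and 8773 in the parental line. Pancreatic polypeptide and both delta cell markers were dim on the arrays, with no delta cell signal above 101.2, and the 6 acinar, 5 fibroblast and 4 leukocyte or endothelial markers were dim too, none above 253.2. Of the 2 ductal markers, Krt19 was dim and Krt7 was bright, at 808.1 and 1218 in the 5-3 clones, 882.1 and 903.4 in set 1-1, and 1834 in the parental line. Glucagon, the alpha cell hormone, read 20549 and 24434 in the 5-3 clones, 2064 and 17772 in the 1-1 clones, against 6874 in the parental line. Irx1, another alpha cell marker, was dim. All 8 neuronal markers were bright by their mean, and their summed signal was 9883 and 11186 in the 5-3 clones, 10498 and 7974 in the clones of set 1-1 and 19366 in the parental line. Between the sets, 4 had a higher and 4 a lower fitted level in the 5-3 clones. limma called 2, Nefl and Nefm, both lower there (log2 differences −2.44 and −2.28, limma adjusted p 0.040 for each). In the 5-3 clones Nefl read 114.3 and 115.4 and Nefm 70.9 and 89.8, which is in the dim range. Pairs of arrays correlated at 0.906 to 0.962 over the tested probe sets. The parental array also differed in the control RNAs added to the samples: the clones averaged 0.281 of its signal for the lys control and 0.650 to 0.786 for the other 4 poly(A) controls, but 1.20 and 1.22 times its signal for the hybridisation controls. What belongs to the line and what to the handling of its only array cannot be told apart wherever a clone is compared with it. In bulk RNA, fewer cells holding a transcript and less transcript per cell cannot be told apart either.

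Sytl4 was the member that varied most. It encodes granuphilin, which docks insulin granules at the plasma membrane by binding Rab27a and syntaxin 1a. The gene lies on rat chromosome X from 101428785 to 101479207 in the GRCr8 assembly and had 1 probe set. Its signal was 116.5 in 5-3.14 and 748.3 in 5-3.19, 1708 in 1-1.2 and 978.3 in 1-1.16, and 3234 in the parental line. Every clone lay below the parental line, and both 5-3 clones lay below both 1-1 clones. The signal in 5-3.14 lies in the dim range, where it cannot be separated from background, so the size of folds against it is uncertain. All folds and log2 differences here were taken on the log2(signal + 21.8) scale. On it the parental signal was 23.5-fold that of 5-3.14, 4.23-fold that of 5-3.19, 1.88-fold that of 1-1.2 and 3.26-fold that of 1-1.16.

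Neither Sytl4 difference passed the test with all arrays in the fit. The clones averaged 887.8 ± 657.1 (SD, n = 4) against 3234 in the single parental array, a log2 difference of −2.31 ± 1.19 (SE) with a 95% interval of −5.13 to 0.50 and an adjusted p of 1.00 by limma with Benjamini-Hochberg adjustment. The 5-3 clones averaged 432.4 ± 446.8 and the 1-1 clones 1343 ± 516.0 (SD, n = 2 each). Their log2 difference was −2.01 ± 0.74 (SE, 95% interval −3.79 to −0.23, unadjusted p 0.0319, limma adjusted p 0.275). The 2 clones of set 5-3 were 5.57-fold apart in Sytl4, a fold of uncertain size, and those of set 1-1 were 1.73-fold apart. Without 5-3.19 the difference between the sets was −3.25 (limma adjusted p 0.00558, over a range of 0.00558 to 0.552 across the alternatives tried), in a fit where 5-3.14 alone stands for its set and is assumed to vary like the other clones. Without 5-3.14 it was −0.77 (limma adjusted p 0.302). The size of the difference between the sets therefore moved with the 5-3 clone kept. Its direction could not change when a clone was left out, because the sets did not overlap.

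**Figure D1:**
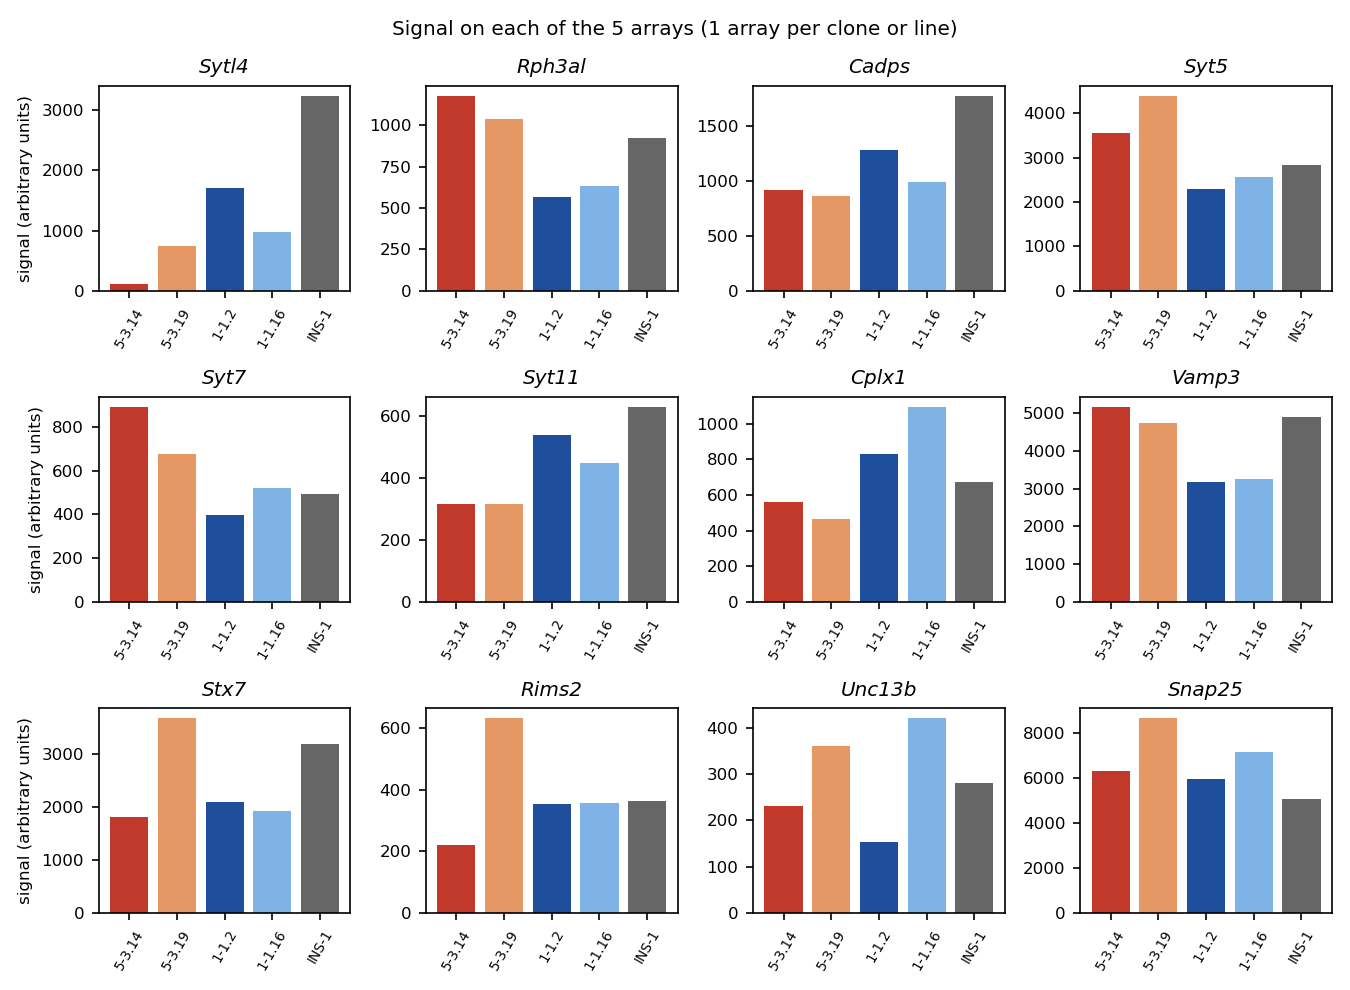
Linear signal in arbitrary units of 12 members, with 1 bar for each array, clones to the left of the parental line, and an axis from 0 with its own scale for each gene. Sytl4 spans 116.5 in 5-3.14 to 3234 in the parental line, and Rph3al is higher in both 5-3 clones than in either 1-1 clone.

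Over all members, limma called 0 of the 33 genes between the clones and the parental line, and 0.0% of the 9570 tested probe sets passed there in either direction. The lowest adjusted p was 1.00 among the members and 0.904 over all tested probe sets. At an unadjusted p under 0.05, 1 member (Cadps) stood below the parental line, against 3.72% of all tested probe sets in either direction. The median log2 difference of the 33 members was 0.005, against 0.007 over all tested probe sets. A fitted difference of at least 2-fold was found for Sytl4 alone, and it was lower in the clones, as for 2.46% of all tested probe sets, while 1.23% were higher by as much. All 4 clones lay above the parental array for 4 members (Snap25, Stx4, Vamp8 and Cplx2), or 12.1%, against 18.4% of all tested probe sets. They lay below it for 5 members (Syt11, Cadps, Nsf, Napg and Sytl4), or 15.2%, against 19.6%. These shares were close to those over the whole array or below them.

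**Figure D2:**
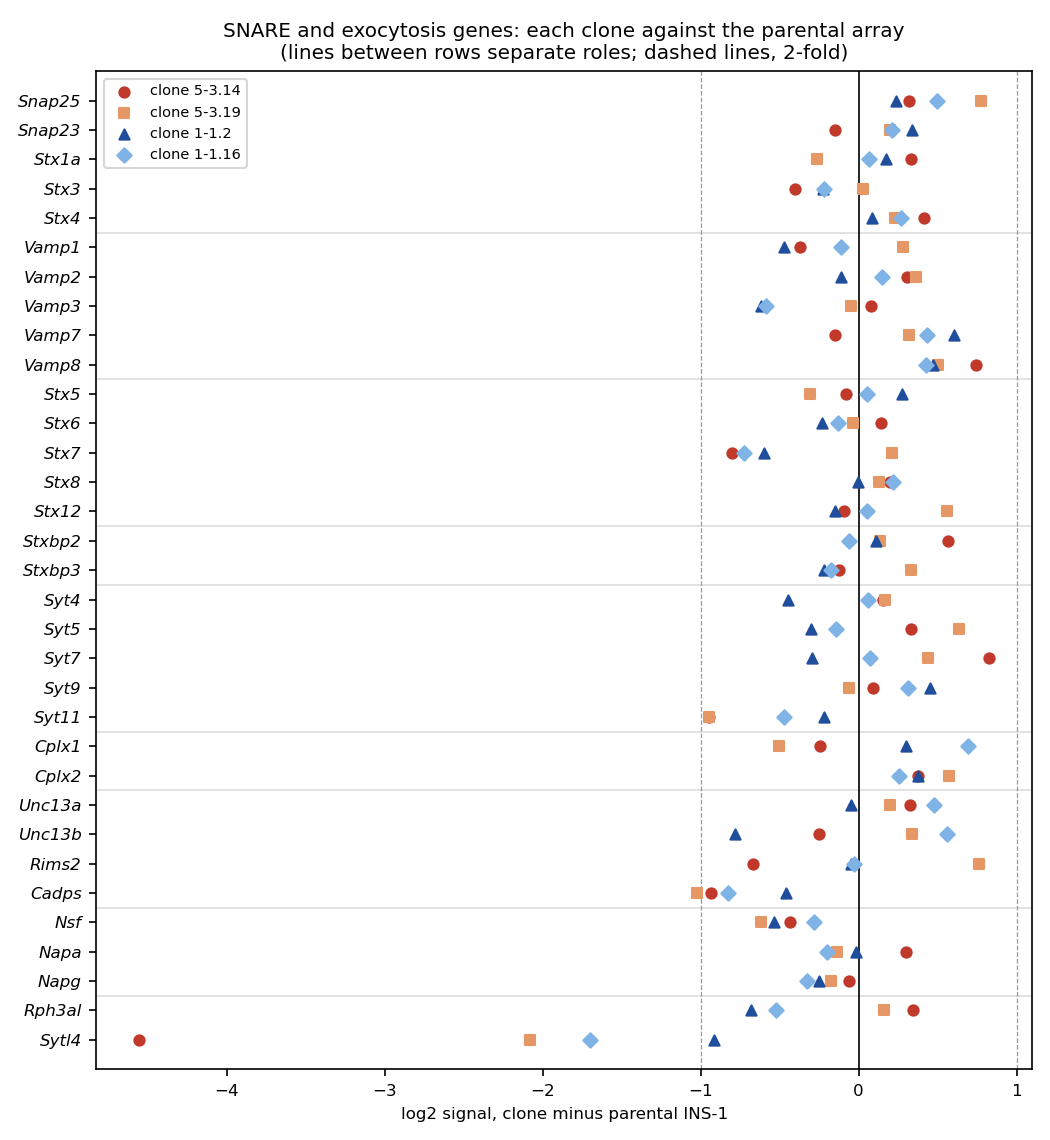
Log2 difference of each clone from the parental array for the 33 tested member genes, grouped by role, with 1 point per clone. Most points lie near 0, and the Sytl4 points lie farthest below it in all 4 clones.

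Cadps, Syt11 and Sytl4 shared an order in which the parental line was highest, the 1-1 clones followed and the 5-3 clones were lowest, as 3.65% of all tested probe sets did (3 of 33 members, 9.09%). The reverse order held for Vamp8 and Cplx2 (2 of 33, 6.06%), against 3.64% of all tested probe sets. Cadps encodes CAPS, a priming factor for dense-core vesicles, and lies on chromosome 15 from 14719078 to 15173218. Its signal was 917.3 and 862.3 in the 5-3 clones, 1283 and 989.0 in the 1-1 clones, against 1773 in the parental line. The clones averaged 1013 ± 187.2 (SD, n = 4), and the log2 difference from the single parental array was −0.81 ± 0.30 (SE, 95% interval −1.53 to −0.10, unadjusted p 0.0312, limma adjusted p 1.00). With each clone left out in turn it ranged from −0.93 to −0.74. The parental signal was 1.38- to 2.03-fold that of the single clones. Beside these values, the summed signal of the neuronal markers was also highest on the parental array, with 7 of 8 markers at a lower fitted level in the clones. The same held for 7 of 8 beta cell markers, where the sum was highest in 1-1.2 and next in the parental line, and the ductal marker Krt7 was highest in the parental line. Sytl4, Cadps and Syt11 shared 1-1.2 as the highest clone with the beta cell markers Ins1, Ins2, Iapp and Neurod1. The markers Pdx1, Slc2a2, Nkx6-1 and Pax6 were highest in a 5-3 clone. The part of these markers in the Cadps and Sytl4 values was not tested.

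Syt11, on chromosome 2 from 176503845 to 176530354, encodes an atypical synaptotagmin thought not to act as a calcium sensor. It read 315.7 and 316.4 in the 5-3 clones, 537.2 and 447.2 in the clones of set 1-1 and 629.1 in the parental line. The 5-3 clones were nearly equal and lay below every other array. The log2 difference was −0.65 ± 0.37 (SE) between the clones and the parental line and −0.60 ± 0.24 between the 5-3 and 1-1 clones, the second with a 95% interval of −1.18 to −0.02 (unadjusted p 0.0454, limma adjusted p 0.318).

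The 250 bases before the start that RefSeq's promoter table (GRCr8) gives for Sytl4, Cadps and Syt11 are printed because these are the members with the shared order. They lie at chrX:101479152-101479401 on the minus strand for Sytl4, chr15:14720476-14720725 on the plus strand for Cadps and chr2:176529776-176530025 on the minus strand for Syt11. The windows of Cadps and Syt11 lie within the annotated extent of the gene and that of Sytl4 partly within it, in each case before the start of the transcript that the table uses. Each is written 5′ to 3′, and capitals mark matches to the GC box GGGCGG, the cAMP response element core TGACG or the E-box CANNTG on either strand, none of which overlap.
Sytl4: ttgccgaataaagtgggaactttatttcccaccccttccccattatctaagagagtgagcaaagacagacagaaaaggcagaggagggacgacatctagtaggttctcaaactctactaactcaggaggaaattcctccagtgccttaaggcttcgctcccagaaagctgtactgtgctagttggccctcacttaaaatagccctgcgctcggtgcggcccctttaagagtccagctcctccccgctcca
Cadps: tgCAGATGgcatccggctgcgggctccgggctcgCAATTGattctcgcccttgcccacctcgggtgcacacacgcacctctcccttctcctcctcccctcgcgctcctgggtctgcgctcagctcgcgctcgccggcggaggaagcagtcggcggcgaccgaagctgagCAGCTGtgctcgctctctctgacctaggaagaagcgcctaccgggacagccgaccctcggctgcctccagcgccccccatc
Syt11: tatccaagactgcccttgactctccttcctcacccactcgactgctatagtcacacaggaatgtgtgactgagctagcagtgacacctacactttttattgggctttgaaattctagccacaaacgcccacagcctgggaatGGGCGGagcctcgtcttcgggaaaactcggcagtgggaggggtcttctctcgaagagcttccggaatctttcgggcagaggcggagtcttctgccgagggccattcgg
Sytl4 held no match to any of the 3 motifs, Cadps held 3 E-boxes and Syt11 held 1 GC box. The base composition also differed, with 50.8% G and C in Sytl4, 68.8% in Cadps and 54.8% in Syt11. Of the 27 tested member genes with a promoter in the table, 12 (44.4%) held TGACG, against 18.2% of 33469 promoters in all and 30.5% of the 6529 promoters of tested genes. The GC box stood in 19 (70.4%), against 30.5% and 61.8%, and the E-box in 15 (55.6%), against 65.5% and 54.9%. A match is a description of letters and not a binding site. None of the 3 motifs stood in all 3 windows.

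The plasma membrane SNAREs varied little. Their median fold between the highest and the lowest array was 1.40 over 5 genes, against 1.62 over all tested probe sets. Snap25, the neuronal and endocrine SNAP protein that pairs with syntaxin 1a for insulin release, had 1 probe set. It read 6316 and 8675 in the 5-3 clones, 5953 and 7138 in the 1-1 clones, against 5057 in the parental line, so each clone lay above the parental line while the clone sets overlapped. The log2 difference between the clones and the parental line was 0.46 ± 0.26 (SE, limma adjusted p 1.00). Snap23, its widely expressed relative, read 836.3 and 1069 in the 5-3 clones, 1182 and 1077 in the clones of set 1-1 and 929.1 in the parental line by its brighter probe set. Its second probe set read 315.7 and 635.9 in the 5-3 clones, 450.6 and 506.8 in set 1-1 and 507.1 in the parental line. The signs against the parental line were opposite, so no direction is given for Snap23.

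Stx1a, the main syntaxin of insulin granule release, read 1246 and 815.7 in the 5-3 clones, 1112 and 1029 in the 1-1 clones, against 983.3 in the parental line. The 5-3 clones bracketed the other 3 arrays, and the second probe set, at 828.8 to 1001 over the arrays, showed the same pattern. Stx4, a plasma membrane syntaxin that also serves insulin granules, read 2913 and 2560 in the 5-3 clones, 2311 and 2627 in the clones of set 1-1 and 2178 in the parental line. All 4 clones were above the parental line by a small margin (log2 difference 0.25 ± 0.25, SE). Stx3, a plasma membrane and granule syntaxin, was close to the brightness limit at 233.7 to 321.7 over the arrays, and its other probe set was dim.

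Among the vesicle SNAREs, Vamp3 separated the clone sets most. It encodes cellubrevin, a VAMP of recycling endosomes and small vesicles. Its signal was 5164 and 4734 in the 5-3 clones, 3177 and 3258 in the 1-1 clones, against 4894 in the parental line. The parental line lay with the 5-3 clones, and the 1-1 clones were lower than both. The fitted difference between the sets was 1.53-fold, with a log2 difference of 0.62 ± 0.19 (SE, 95% interval 0.16 to 1.07, unadjusted p 0.0150, limma adjusted p 0.209). Vamp2, the VAMP of insulin granules and synaptic vesicles, read 752.8 and 784.6 in the 5-3 clones, 557.6 and 671.4 in the clones of set 1-1 and 604.3 in the parental line. Its sets did not overlap, and the log2 difference of 0.32 ± 0.23 (SE) did not pass (limma adjusted p 0.581).

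Vamp8, an endosomal VAMP that also takes part in granule exocytosis, read 4444 and 3752 in the 5-3 clones, 3673 and 3551 in the 1-1 clones, against 2642 in the parental line. Each clone was above the parental line, with a log2 difference of 0.54 ± 0.24 (SE, unadjusted p 0.0632, limma adjusted p 1.00). Vamp7, a longin-domain VAMP of late endosomes and lysosomes, went the other way between the sets, at 3847 and 5337 in the 5-3 clones against 6500 and 5774 in the 1-1 clones, with 4268 in the parental line. Vamp1, a close relative of Vamp2, read 211.0 to 371.3 over the arrays and overlapped between the groups. Its other 2 probe sets and the second probe set of Vamp2 were dim.

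The syntaxins of the Golgi apparatus and endosomes included the member with the least spread. Stx8, of late endosomes, read 738.0 and 701.1 in the 5-3 clones, 636.8 and 746.7 in the clones of set 1-1 and 638.8 in the parental line, a fold of 1.17 between the highest and the lowest array. Stx7, its partner in late endosome fusion, read 1816 and 3682 in the 5-3 clones, 2092 and 1914 in the 1-1 clones, against 3180 in the parental line. Here 5-3.19 and the parental line were high and the other 3 clones low. The 5-3 clones were 2.02-fold apart in Stx7.

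Stx12, of recycling endosomes, was also highest in 5-3.19, at 835.4 and 1324 in the 5-3 clones, 800.3 and 926.8 in the clones of set 1-1 and 890.7 in the parental line. Stx5, which serves transport between the endoplasmic reticulum and the Golgi apparatus, read 1344 and 1147 in the 5-3 clones, 1728 and 1476 in the 1-1 clones, against 1424 in the parental line, so the parental line lay between the sets. Stx6, of the trans-Golgi network, read 815.0 to 1064 over the arrays by its brighter probe set. The log2 difference between the clones and the parental line was −0.06 by that probe set and −0.45 by its second tested one. limma called neither, and by the second the clone sets overlapped.

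Of the Sec1/Munc18 genes, Stxbp2 (Munc18b) read 1239 and 915.0 in the 5-3 clones, 897.8 and 793.2 in the clones of set 1-1 and 829.6 in the parental line. Stxbp3 (Munc18c), the partner of syntaxin 4, read 393.4 and 546.8 in the 5-3 clones, 365.7 and 378.8 in the 1-1 clones, against 430.1 in the parental line. Both had the 5-3 clones above the 1-1 clones, as had 22.0% of all tested probe sets. Their log2 differences of 0.33 ± 0.24 and 0.30 ± 0.27 (SE) did not pass (limma adjusted p 0.600 and 0.664).

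Of the 5 synaptotagmins tested, limma called 0 between the clone sets after adjustment. At an unadjusted p under 0.05 there were 3, against 15.0% of all tested probe sets. Syt5 and Syt7 had a positive difference and Syt11 a negative one. Syt7, a calcium sensor of high affinity with a known part in insulin secretion, read 893.5 and 678.2 in the 5-3 clones, 397.7 and 519.3 in the clones of set 1-1 and 493.5 in the parental line. The 5-3 clones were above all other arrays, by a fitted 1.68-fold over the 1-1 clones (log2 difference 0.75 ± 0.26, SE, 95% interval 0.12 to 1.38, unadjusted p 0.0267, limma adjusted p 0.252). The dim probe sets of Syt7 read 166.0 and 140.1 in the 5-3 clones, 108.6 and 100.4 in the 1-1 clones, against 82.1 in the parental line for the brighter, and no more than 49.1 on any array for the dimmer.

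Syt5, a synaptotagmin of dense-core vesicles, also separated the sets, at 3556 and 4398 in the 5-3 clones, 2285 and 2558 in the clones of set 1-1 and 2826 in the parental line. The parental line lay between sets that did not overlap, and the fitted difference was 1.63-fold (log2 0.71 ± 0.22, SE, 95% interval 0.19 to 1.22, unadjusted p 0.0148, limma adjusted p 0.208). Syt9, a calcium sensor of dense-core vesicles in INS-1 cells, had the opposite order, at 438.1 and 392.6 in the 5-3 clones, 569.5 and 513.4 in the 1-1 clones, against 409.8 in the parental line. Its log2 difference of −0.37 ± 0.24 (SE) was smaller and did not pass even unadjusted (p 0.169). The names Syt5 and Syt9 were exchanged in some of the earlier literature, and the symbols here are those of the platform table. Syt4, an atypical synaptotagmin with an altered calcium-binding site, read 1624 and 1641 in the 5-3 clones, 1063 and 1518 in the clones of set 1-1 and 1458 in the parental line.

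Neither complexin passed the adjusted threshold in either comparison. Cplx1 read 561.9 and 467.6 in the 5-3 clones, 830.6 and 1096 in the 1-1 clones, against 670.7 in the parental line. The parental line lay between the sets, and the log2 difference was −0.87 ± 0.25 (SE, 95% interval −1.47 to −0.27, unadjusted p 0.0111, limma adjusted p 0.193). Its second probe set was dim and overlapped between the sets, at 172.9 and 136.2 in the 5-3 clones, 155.0 and 206.4 in the clones of set 1-1 and 151.7 in the parental line. Cplx2 read 431.1 and 497.6 in the 5-3 clones, 430.8 and 394.6 in the 1-1 clones, against 327.2 in the parental line, with every clone above the parental line (log2 difference 0.39 ± 0.28, SE).

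Among the other priming genes, Unc13b and Rims2 varied most between clones of the same set, and some of their signals were near the brightness limit. Unc13b, a Munc13 priming protein, read 231.8 and 359.4 in the 5-3 clones, 153.3 and 421.4 in the clones of set 1-1 and 279.5 in the parental line, with the 1-1 clones 2.53-fold apart. Rims2, a RIM active zone protein that binds Rab3, read 221.9 and 634.0 in the 5-3 clones, 352.5 and 356.3 in the 1-1 clones, against 364.7 in the parental line, with the 5-3 clones 2.69-fold apart. For Unc13b each set, and for Rims2 set 5-3, had a clone on either side of the parental line. Unc13a, the main Munc13 of neurones, read 189.4 to 282.1 over the arrays. Rims1 was dim, at 106.2 and 133.5 in the 5-3 clones, 68.8 and 120.0 in the clones of set 1-1 and 170.8 in the parental line, and was not tested.

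The genes that take SNARE complexes apart differed little. Nsf, the ATPase, read 1698 and 1491 in the 5-3 clones, 1579 and 1887 in the 1-1 clones, against 2300 in the parental line by its brightest probe set. That probe set and another put all 4 clones below the parental line, with log2 differences of −0.47 and −0.52, while the third gave 0.04. None of the 3 passed the test. Napa (alpha-SNAP) read 2317 to 3293 over the arrays and Napg (gamma-SNAP) 1745 to 2196. Napg was highest in the parental line, at 2109 and 1945 in the 5-3 clones against 1844 and 1745 in the 1-1 clones.

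Rph3al had the lowest p of all members between the sets. It encodes Noc2, an effector of Rab3 and Rab27 known to act in insulin secretion, and lies on chromosome 10 from 61188288 to 61331591. It read 1178 and 1036 in the 5-3 clones, 567.2 and 635.8 in the clones of set 1-1 and 924.4 in the parental line. The clones of each set were within 1.14-fold of each other, and the parental line lay between the sets. The 5-3 clones averaged 1107 ± 101.0 and the 1-1 clones 601.5 ± 48.5 (SD, n = 2 each), a fitted 1.81-fold difference (log2 0.86 ± 0.22, SE, 95% interval 0.33 to 1.38, unadjusted p 0.00671, limma adjusted p 0.163). The difference ranged from 0.76 to 0.95 with each clone left out in turn. Both Rab effectors among the members had sets that did not overlap, with Rph3al higher and Sytl4 lower in the 5-3 clones. Sets without overlap were common, with the 5-3 clones higher for 22.0% and lower for 24.6% of all tested probe sets.

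**Figure D3:**
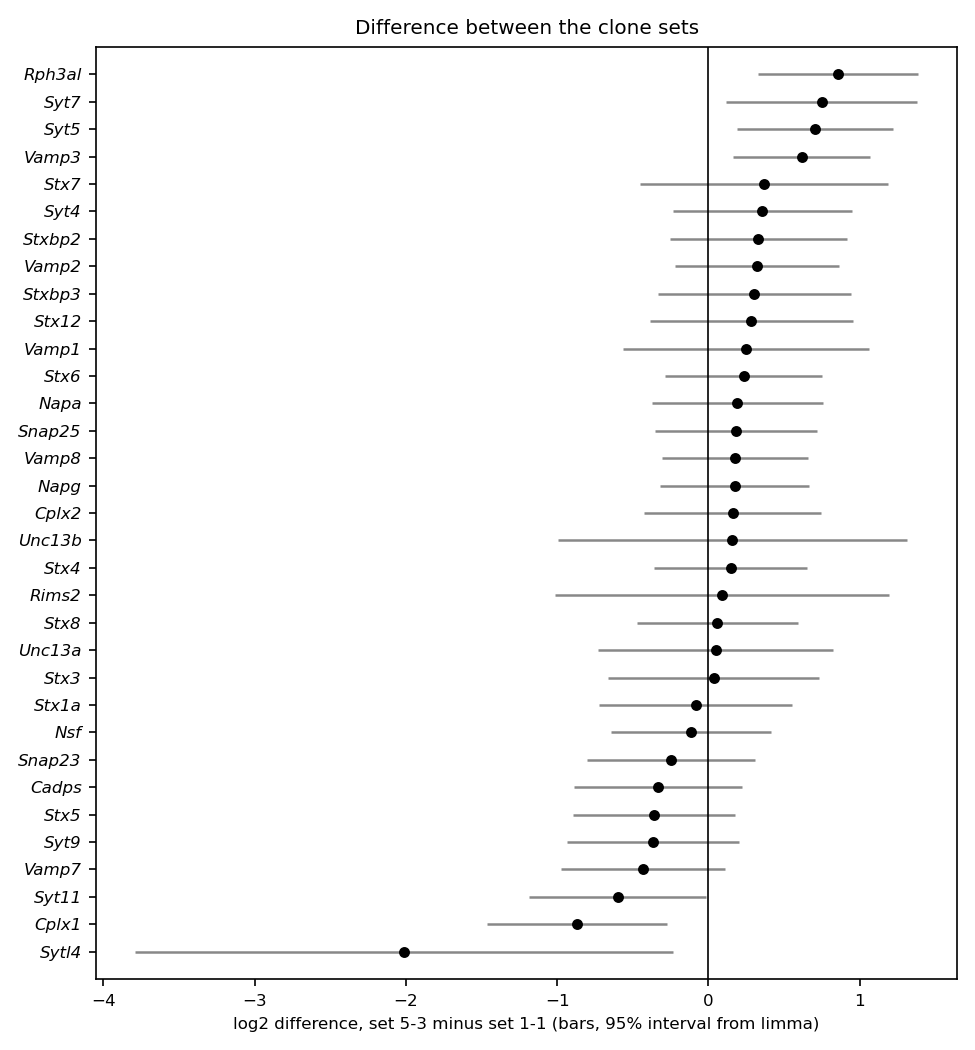
Fitted log2 difference between the 5-3 and 1-1 clones for the 33 tested member genes, with 95% intervals from limma. The intervals of Rph3al, Syt7, Syt5 and Vamp3 lie above 0 and those of Syt11, Cplx1 and Sytl4 below it, before adjustment.

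Between the clone sets, limma with Benjamini-Hochberg adjustment called 0 of the 33 members, against 0.439% of all tested probe sets (42 of 9570). At an unadjusted p under 0.05 there were 7 members, or 21.2%, against 15.0% of all tested probe sets. Higher in the 5-3 clones were Vamp3, Syt5, Syt7 and Rph3al, as were 7.98% of all tested probe sets. Lower were Syt11, Cplx1 and Sytl4, as were 6.99%. A fitted difference of at least 2-fold was found only for Sytl4, lower as in 2.72% of all tested probe sets, while 3.19% were higher by as much. Both 5-3 clones lay above both 1-1 clones for 12 members, or 36.4%, against 22.0% of all tested probe sets. Both lay below for 8 members, or 24.2%, against 24.6%. The parental line lay between sets that did not overlap for 4 members (Stx5, Syt5, Cplx1 and Rph3al), against 12.2% of all tested probe sets.

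The 12 members with higher 5-3 signals held Vamp2, Vamp3 and Vamp8, both Sec1/Munc18 genes, Syt4, Syt5 and Syt7, with Stx6, Cplx2, Napg and Rph3al. The 8 with lower signals were Snap23, Vamp7, Stx5, Syt9, Syt11, Cplx1, Cadps and Sytl4. These lists go by the brightest probe set of each gene. By the second tested probe set of Stx6 and of Snap23 the clone sets overlapped. Over the 33 members, 23 had a fitted difference above 0 (69.7%), against 45.8% of all tested probe sets, and the median log2 difference was 0.16, against −0.04. With each clone left out in turn the members' median ranged from 0.06 to 0.17. Most of these differences were small, and no member reached the adjusted threshold.

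The 2 clones of a set give the spread against which the sets were compared. In set 5-3, 3 members were at least 2-fold apart (Stx7, Rims2 and Sytl4), or 9.09%, against 6.91% of all tested probe sets. In set 1-1 it was 1 member (Unc13b), or 3.03%, against 2.94%. Stx7 and Rims2 were higher in 5-3.19 and so was Sytl4. Against the parental line, 5-3.14 was at least 2-fold apart in 1 member (Sytl4; 9.31% of all tested probe sets), 5-3.19 in 2 (Cadps and Sytl4; 5.42%), 1-1.2 in 0 (5.4%) and 1-1.16 in 1 (Sytl4; 8.03%). These comparisons rest on single arrays and have no replicate check.

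**Figure D4:**
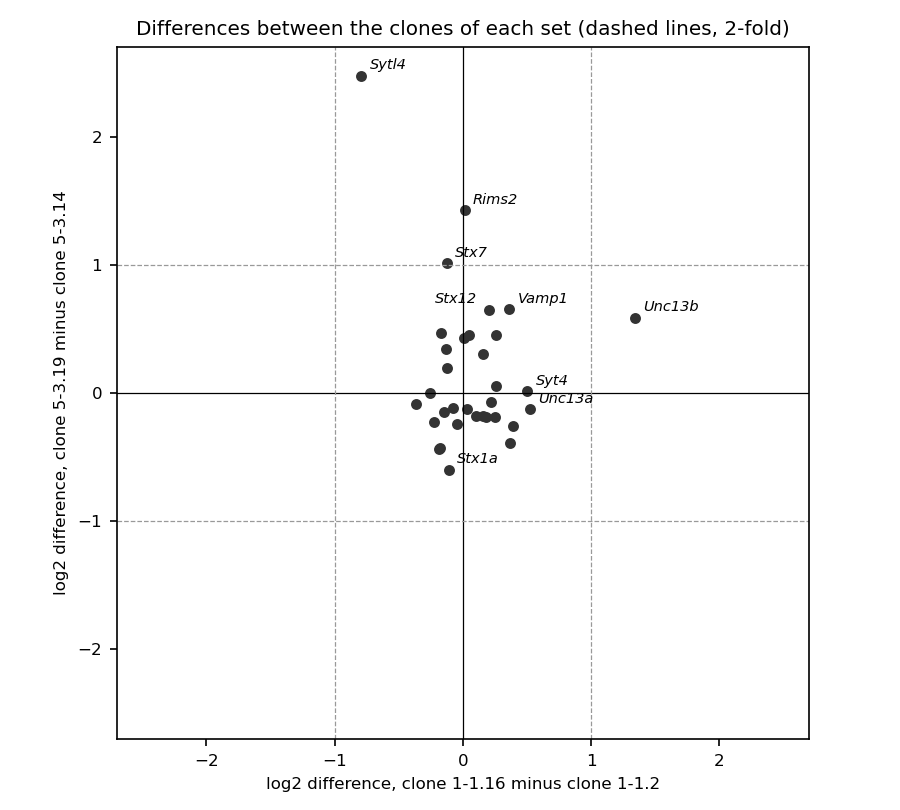
Log2 difference between the clones of set 5-3 (5-3.19 minus 5-3.14) and between those of set 1-1 (1-1.16 minus 1-1.2) for the 33 tested member genes. Sytl4, Rims2 and Stx7 lie farthest out in set 5-3 and Unc13b in set 1-1.

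Over the 5 arrays, 25 of the 33 members stayed within 2-fold from the highest to the lowest signal, and 13 stayed within 1.5-fold. The 8 that did not (24.2%) were Stx7, Syt7, Cplx1, Unc13b, Rims2, Cadps, Rph3al and Sytl4, against 26.2% of all tested probe sets at 2-fold or more. The median fold was 1.55 for the members and 1.62 for all tested probe sets. By role, the median was 1.42 for the 3 NSF and adaptor genes, 1.50 for the 5 Golgi and endosomal syntaxins, 1.68 for the 5 vesicle SNAREs and 1.92 for the 5 synaptotagmins. The 4 tested priming genes had 2.27, and the Rab effectors Rph3al and Sytl4 had 2.04 and at least 23.5. The spread of the machinery as a whole was thus near that of the array, and Sytl4 exceeded every other member.

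**Figure D5:**
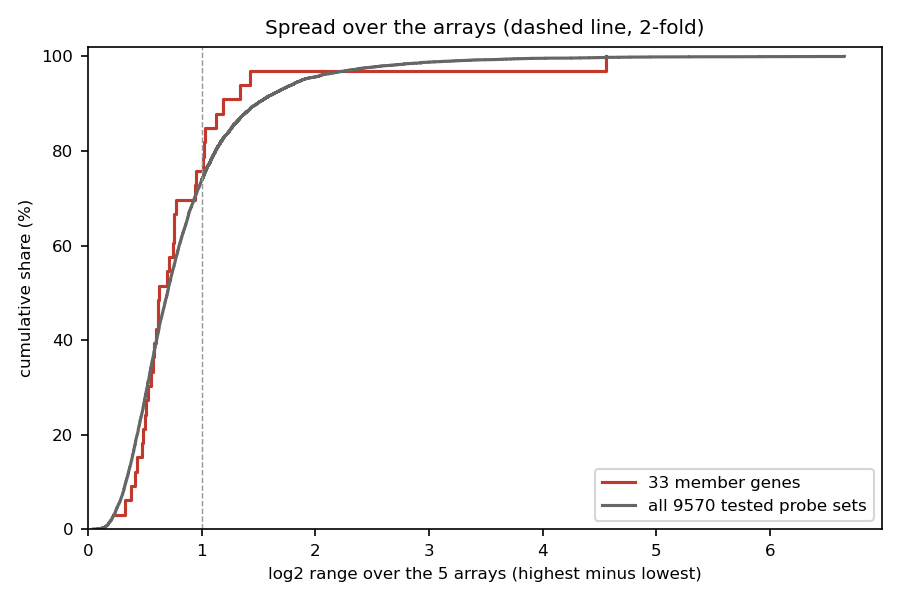
Cumulative share of the 33 member genes and of all 9570 tested probe sets by log2 range over the 5 arrays, with a dashed line at 2-fold. The curves run close together, and the last step of the members is Sytl4.

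Other genes of the pathway were taken from 6 lists, and limma called 0 of their 58 tested genes in either comparison. At an unadjusted p under 0.05 there was 1 gene against the parental line (1.72%, against 3.72% of all tested probe sets), in the list of secretory Rab GTPases. Between the sets there were 3 (5.17%, against 15.0%), with 1 in that list, 1 among the exocyst genes and 1 among the C2 domain and active zone genes. Among 13 other SNAREs tested of 22 listed, 10 had a higher mean in the clones than in the parental line and 5 had a higher mean in the 5-3 than in the 1-1 clones, beside 51.0% and 45.8% of all tested probe sets. Among 11 SNARE regulators tested of 17 the numbers were 7 and 2, and among 12 vesicle membrane proteins of 22 they were 9 and 5. Among 7 other C2 domain and active zone genes tested of 33, 1 had a higher mean in the clones and 5 lay below the parental line in all 4 clones, as 19.6% of all tested probe sets did. Cadps2, the relative of Cadps, was the exception, at 727.2 and 680.4 in the 5-3 clones, 503.0 and 764.3 in the 1-1 clones, against 397.2 in the parental line. Bsn, the active zone scaffold bassoon, read 746.2 and 852.6 in the 5-3 clones, 420.2 and 571.8 in the clones of set 1-1 and 745.7 in the parental line.

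Among 7 secretory Rab GTPases and partners tested of 12, 4 had a higher mean in the clones than in the parental line and 5 in the 5-3 than in the 1-1 clones. Here Rab3b, a Rab3 GTPase of vesicles, read 2948 and 3012 in the 5-3 clones, 764.3 and 148.7 in the 1-1 clones, against 1196 in the parental line. The log2 difference between the sets was 3.04 ± 0.64 (SE, limma adjusted p 0.121), and the 1-1 clones differed from each other as well. The signal in 1-1.16 lies in the dim range, so the size of differences against it is uncertain. Rab3a, the main Rab3 of neuroendocrine cells, read 693.6 and 668.3 in the 5-3 clones, 751.4 and 601.5 in the clones of set 1-1 and 1053 in the parental line. Exocyst genes, which tether vesicles before fusion, were tested for 8 of 10, with a higher mean in the clones for 5 and in the 5-3 clones for 5. Exoc8 read 412.1 and 325.9 in the 5-3 clones, 99.2 and 228.0 in the 1-1 clones, against 191.5 in the parental line (log2 difference between the sets 1.16, limma adjusted p 0.259). Its signals in 1-1.2 and the parental line lie in the dim range. Exoc6 read 1468 and 1370 in the 5-3 clones, 1449 and 2926 in the clones of set 1-1 and 877.0 in the parental line, so all 4 clones lay above it.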

How the data were processed

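Total RNA from 5 rat samples (4 clones and the parental INS-1 line) was hybridised to single-colour expression arrays, 1 per sample. The deposited values are linear signal intensities, 1 for each array and probe set. Which software made them is not given in the sources used, and no detection calls were used. The trimmed means were already equal across arrays, so the intensities were used as deposited. Of 15923 probe sets, 57 controls were left out. The platform table gave 12783 probe sets 1 symbol, 312 several and 2771 none; only the first were named, and 12748 matched the GRCr8 gene table, with 0 symbols changed.

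The deposited signals were taken as log2(signal + 21.8), the offset being the 10th percentile of positive signals, so folds of dim genes are understated. Probe sets with a mean signal of at least 200 were tested. limma 3.58.1 in R 4.3.3 (lmFit, eBayes with an intensity trend) compared the 4 clones as 1 group with the parental array (3 residual degrees of freedom, with the parental array assumed to vary as a clone does), and set 5-3 with set 1-1 in a fit of 3 groups (2 residual degrees of freedom). Benjamini-Hochberg adjustment ran over all 9570 tested probe sets with a threshold of 0.05; they measure only the spread between these clones. Each gene is given by its brightest probe set. Samples were grouped by their labels. The scripts were tested on simulated data with known changes. Of the simulated 2-fold changes, 17.9% were called against the parental line and 47.8% between the sets. Of the 4-fold changes it was 73.1% and 100%. Among unchanged probe sets there were 14 and 22 false calls. A true 2-fold change can thus go uncalled.

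The members, the gene lists and the rule for named genes were chosen with earlier results of these data known. The rule gave values on every array to members at least 2-fold apart in a comparison or between the clones of a set, and to the brightest of each role; others were added after their values were seen. Alternatives were the offset, the filter, the scaling, the intensity trend, the grouping, the probe set and leaving out each clone. Counts at an unadjusted p were added after the data were seen.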

Additional observations from a re-analysis of the deposited data

Results flagged for a closer look

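Among the 33 members, 4 (12.1%) had the clone sets on opposite sides of the parental array, as had 12.2% of all tested probe sets. The log2 difference between the 5-3 and 1-1 clones was −0.36 for Stx5, 0.71 for Syt5, −0.87 for Cplx1 and 0.86 for Rph3al. The test of that difference by limma did not pass for any of the 4 after adjustment. For Stx7 and Stxbp3 the clone 5-3.19 lay far above the other 3 clones: its gap to the nearest clone was 0.852 of the whole range for Stx7 and 0.847 for Stxbp3, beyond Dixon's critical value for 4 samples. The rule was applied to all 39 tested probe sets of the members, and only these of Stx7 and Stxbp3 passed it. Chance alone passes about 1 in 20 groups, so about as many would be reached without any outlying clone. For Stx7 the parental array, at 3180, lay near 5-3.19, and for Stxbp3, at 430.1, it lay between 5-3.19 and the other clones.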

How the results depend on the processing

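No paired analysis was possible because the replicate numbers only name the clones and the parental line has 1 array. Against the parental line 0 probe sets were called under every alternative, with 149 higher and 207 lower at an unadjusted p under 0.05. Between the sets, the fit with all arrays called 20 higher and 22 lower. It called 7 and 3 with no filter, 41 and 37 under median centring, and 764 and 669 were found at an unadjusted p. With an offset 4 times larger or under quantile normalization 32 were higher, and at a mean signal of at least 500, 11 were lower. With each clone left out in turn the counts ranged from 30 to 127 higher and from 22 to 144 lower, with a set's lone clone assumed to vary like the others. No member passed the adjusted threshold in these fits except Sytl4 between the sets without 5-3.19 (−3.25, limma adjusted p 0.00558). The members' median ranged from −0.04 to 0.07 against the parental line and from 0.06 to 0.19 between the sets.

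Small differences from the parental line changed sign with the scaling. They became 0.03 for the second probe set of Stx1a under median centring and quantile normalization and 0.005 under cyclic loess. Stx5 became 0.02 and 0.005, and Syt4 0.02 and 0.004, under median centring and quantile normalization. Under median centring Unc13b became 0.003 and Napa 0.02. The cause was not tested. With each clone left out in turn, differences from the parental line crossed 0 for these probe sets, with ranges of −0.27 to 0.05 for the second of Snap23, −0.01 to 0.19 and −0.06 to 0.03 for those of Stx1a, −0.11 to 0.08 for Stx5, −0.06 to 0.18 for Stx12, −0.17 to 0.01 for Stxbp3, −0.08 to 0.13 for Syt4, −0.04 to 0.27 for Syt5, −0.15 to 0.25 for Cplx1, −0.23 to 0.22 for Unc13b, −0.25 to 0.23 for Rims2, −0.02 to 0.13 for 1 of Nsf and −0.12 to 0.05 for Napa. Between the sets the ranges crossing 0 were −0.05 to 0.41 for Snap25, −0.57 to 0.40 for the second of Snap23, −0.38 to 0.22 and −0.08 to 0.18 for those of Stx1a, −0.18 to 0.25 for Stx3, −0.08 to 0.58 for Vamp1, −0.15 to 0.63 for the second of Stx6, −0.14 to 0.87 for Stx7, −0.05 to 0.17 for Stx8, −0.04 to 0.61 for Stx12, −0.21 to 0.31 for Unc13a, −0.51 to 0.83 for Unc13b, −0.63 to 0.80 for Rims2, −0.24 to 0.01 for Nsf and −0.03 to 0.41 for Napa.

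Signals near 200 cannot be separated from background without detection calls, which limits Unc13a, Unc13b, Stx3, Vamp1 and Rims2, and 5-3.14 for Sytl4.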
